A study of Rattus norvegicus with 8 samples.

Results

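Complement is a set of plasma proteins, most of them made by hepatocytes, that mark microbes and damaged cells for removal. The genes described here are 9 of these liver products, which span the cascade: C1s of the classical pathway, C2 and Cfb, which supply the active site of the convertase enzymes, the central component C3, C5, C6 and C9 of the terminal pathway, and the inhibitors Cfi and C4bpa. They were chosen by symbol, and a probe set was taken for a gene only where the platform annotation gave it that gene alone. By that rule 7 of the 9 genes had a probe set of their own, 1 each, out of 14217 genes represented on the array. C2 and Cfb had none: 4 probe sets are annotated to both genes together, and they are given separately as values that belong to either gene or to both.

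Livers came from male Sprague-Dawley rats aged 7 weeks, 4 per diet, and RNA of each was measured on 1 Affymetrix 3' expression array. For 2 weeks all of them ate a commercial rodent chow, CRF-1, to which cholesterol (10 g per kg) and cholic acid (5 g per kg) had been added. The diet called L. brevis also contained viable, freeze-dried cells of Lactobacillus brevis 119-2, a strain isolated from turnip, at 10 g per kg. For the control arrays a label mentions CRF-1 without the additions, and the series' design text, in which both groups of 11 rats received cholesterol and cholic acid, was followed. The series concerns the effect of the strain on liver cholesterol, so the comparison asks how complement genes differed between 2 groups that both ate the sterol diet.

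The cascade starts when C1q, a mannose-binding lectin or spontaneous turnover of C3 triggers serine proteases that cut the next component. The paths meet in the cleavage of C3, whose large fragment binds covalently to surfaces, and then of C5, whose large fragment gathers C6 and the later components, with C9 forming the ring of the membrane attack complex. Inhibitors such as factor I (Cfi) and the C4b-binding protein (C4bpa) break down the convertases. Several liver complement genes, C3 and Cfb among them, are known as acute phase genes.

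Values are log2 signals as the authors deposited them, and differences are L. brevis minus control. Signals of different probe sets are not comparable in level. Most of the table cannot show a difference: across the 8 arrays 24719 of 31042 probe sets differ by no more than 0.01 log2, and the other 6323 (20.4%) are called varying. Array medians lay between 6.61 and 6.63, a narrow range that the probe sets that do not vary largely set. The hepatocyte marker list, with 9 measured genes, had a mean signal of 12.62 to 12.88 in control and 12.70 to 12.93 in L. brevis rats. L. brevis rat 2 stood apart with a mean of 8.30 over 12 skeletal muscle genes, against 6.01 to 6.10 in the other 7 rats, so the differences that matter are also given without it. The 7 measured endothelial markers had a lower mean with L. brevis, 8.35 to 8.50 against 8.59 to 9.11. The arrays also differed in the GAPDH control probes, which read the 5' and the 3' end of one transcript and drift apart when RNA or labelled product is short. The 5' minus 3' signal was -2.89, -1.83, -2.93 and -1.98 log2 in control rats 1 to 4 and -2.20, -1.30, -0.94 and -0.68 in L. brevis rats 1 to 4. The diets thus overlapped in this measure, but the 3 highest values were all L. brevis rats.

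None of the members differed between the diets past the test. Of the 6 members with a varying probe set, 3 were higher and 3 lower with L. brevis, and 0 passed an adjusted p of 0.05 (limma over all 31042 probe sets, where 0.142% were called, 7 of those 44 probe sets being varying ones). None passed at an unadjusted p under 0.05 either, a level reached by 22.9% of the varying probe sets. In none of the 6 were the diets free of overlap, which held for 11.3% of the varying probe sets. The median difference over the 6 members was 0.03, beside -0.02 over all varying probe sets. The widest differences were those of Cfi at +0.49 and C5 at -0.39, followed by C4bpa at +0.34. When only the varying probe sets were fitted, where 0.0633% passed the adjusted threshold, Cfi and C5 reached an unadjusted p of 0.0412 and 0.045 (adjusted p = 0.19 and 0.196, limma), beside 24.5% of varying probe sets under 0.05 in that fit. With array weights the same 2 members were under 0.05, where 40.3% of the varying probe sets were. Without L. brevis rat 2 the differences were 0.51 for Cfi, -0.37 for C5 and 0.31 for C4bpa. A p that misses the threshold does not show equal levels, and the 95% intervals below describe the precision of this fit with 4 rats per diet.

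**Figure D1:**
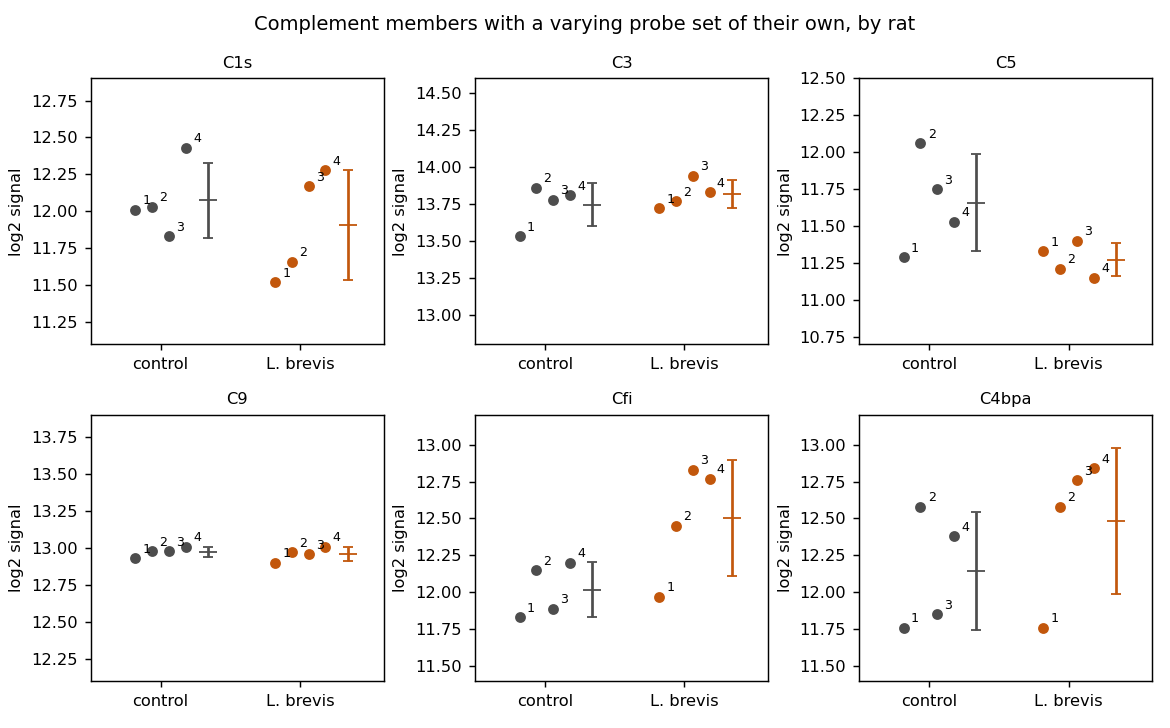
Log2 signal of the 6 complement members with a varying probe set of their own, with 1 point per rat (numbered 1 to 4 within a diet) and the mean ± SD (n = 4) beside each group; all panels span the same number of log2 units. Cfi and C4bpa are high in L. brevis rats 2 to 4 and low in rat 1, C5 is lower in L. brevis rats with control rat 1 among them, and C9 hardly differs between rats.

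The classical pathway member was C1s, the protease of the C1 complex that cuts C4 and C2. Its signal was 12.01, 12.03, 11.83 and 12.43 in control rats 1 to 4 and 11.52, 11.66, 12.17 and 12.28 in L. brevis rats 1 to 4. L. brevis rats 1 and 2 lay below every control rat and rats 3 and 4 within the control range, so the diets overlapped. The difference was -0.16 (SE 0.22, 95% interval -0.70 to 0.37, adjusted p = 0.885, limma), and -0.08 without L. brevis rat 2. C1r, the partner protease that activates C1s and whose gene is its neighbour, had the same division among L. brevis rats: 10.64 and 10.50 in rats 1 and 2, and 11.35 and 11.77 in rats 3 and 4. Control rats had 11.56, 11.43, 10.98 and 11.49 for C1r, and the difference was -0.30 (SE 0.32, adjusted p = 0.782, limma). It was -0.11 without L. brevis rat 2, -0.16 without rat 1 and -0.54 without rat 4, and -0.84 with the GAPDH signal as a covariate. Over the 8 rats C1s and C1r had a Pearson r of 0.87 and a Spearman rho of 0.76, a description over points that share an array. In both genes the SD among L. brevis rats was wider than the diet difference.

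C3, the component on which all paths converge, had 13.53, 13.86, 13.78 and 13.81 in control rats and 13.72, 13.77, 13.94 and 13.83 in L. brevis rats. Apart from the low control rat 1, the rats of both diets lay in one range. The difference was 0.07 (SE 0.09, 95% interval -0.13 to 0.28, adjusted p = 0.821, limma). The width of that interval depended on the variance setting, as given at the end. The pooled SD within diets was 0.124, below the median of 0.220 over varying probe sets.

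C2 and Cfb are neighbouring, related genes of the major histocompatibility region, the first serving the classical and lectin convertase and the second the alternative one. At the brightest of their 4 shared probe sets (1389470_at) control rats had 12.60, 12.91, 12.67 and 12.78 and L. brevis rats 12.47, 12.56, 12.56 and 12.42. All L. brevis rats lay below all control rats, as in 7.09% of the varying probe sets, though only 12.56 and 12.60 separate the groups. The difference of -0.24 (SE 0.08, 95% interval -0.42 to -0.05) had an unadjusted p of 0.0194 and did not pass after adjustment (adjusted p = 0.347, limma). The exact two-sided permutation p was 0.0286, the smallest that 4 against 4 can give. Probe set 1383391_a_at had the widest difference, -0.74 (SE 0.34, 95% interval -1.56 to 0.09, adjusted p = 0.492), from 10.69, 10.88, 9.97 and 10.59 in control rats to 9.98, 10.39, 9.76 and 9.05 in L. brevis rats. Without L. brevis rat 4, the lowest, it was -0.49, and without L. brevis rat 2 it was -0.94. The other 2 probe sets gave -0.18 (SE 0.11) and +0.19 (SE 0.27), so the 4 did not share a direction in this fit. Because each is annotated to both genes, none of these values can be given to C2 or to Cfb.

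The rats' order at 1383391_a_at was set beside the class II gene RT1-Ba of the same region, a comparison chosen after the values were seen. The brightest RT1-Ba probe set had 10.21, 12.11, 6.13 and 11.96 in control rats and 6.24, 11.51, 6.43 and 6.20 in L. brevis rats. Control rats 1, 2 and 4 and L. brevis rat 2 were thus the 4 high rats at that RT1-Ba probe set. The same 4 rats had the highest values, 10.39 to 10.88, at 1383391_a_at, where the other 4 had 9.05 to 9.98. Another RT1-Ba probe set (1377334_at) was low, at 4.23, 4.33 and 4.38, in control rats 2 and 4 and L. brevis rat 2. It was 10.37 to 11.81 in the other 5, control rat 1 among them. High thus refers here to the brightest probe set, not to the gene. The control diet held 3 of the 4 high rats and the L. brevis diet 1. The part of this division in the diet difference of the shared probe set was not tested. The other 3 shared probe sets did not order the rats this way.

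**Figure D2:**
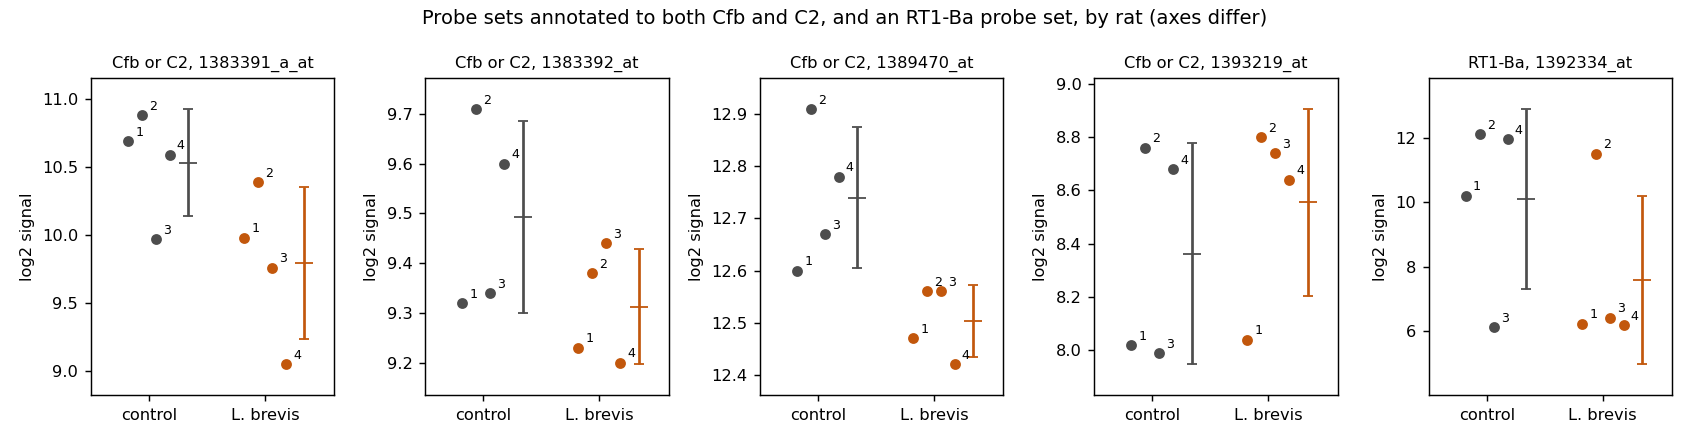
Log2 signal by rat of the 4 probe sets annotated to both Cfb and C2 and of the brightest RT1-Ba probe set, with points numbered by rat and mean ± SD (n = 4) beside each group; vertical axes differ between panels. At 1389470_at the 4 L. brevis rats lie below the 4 control rats, and at 1383391_a_at the high rats are those high at this RT1-Ba probe set.

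Of the terminal pathway, C5, the source of the chemotactic fragment C5a and of the base of the membrane attack complex, had 11.29, 12.06, 11.75 and 11.53 in control rats. L. brevis rats had 11.33, 11.21, 11.40 and 11.15. Control rats 2, 3 and 4 lay above every L. brevis rat, and control rat 1 lay among the L. brevis values. The difference was -0.39 (SE 0.17, 95% interval -0.81 to 0.03, adjusted p = 0.468, limma), a signal 1.31-fold lower, and the exact two-sided permutation p was 0.0857. Without control rat 2, the highest, it was -0.25, and without control rat 1 it was -0.51 (adjusted p = 0.598 and 0.474, limma). The SD was 0.33 among control and 0.11 among L. brevis rats, a difference in spread that was not tested.

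C9, the subunit that polymerises into the pore, had the steadiest signal of the varying members. Its signal was 12.93, 12.98, 12.98 and 13.01 in control and 12.90, 12.97, 12.96 and 13.01 in L. brevis rats, one narrow range in both diets. The pooled SD of 0.038 was smaller than that of all but 4.33% of the varying probe sets. The difference of -0.01 had a 95% interval of -0.08 to 0.05 (adjusted p = 0.942, limma). Under quantile normalization the difference was -0.10 (adjusted p = 0.436, limma), outside that interval. C9 and C3 are both read by bright probe sets, and whether these register differences in full was not tested. C6, which joins C5b and recruits the later components, held 7.84 in every rat, which leaves its diet difference unmeasured. Its neighbour in the cascade, C7, had only probe sets shared with a tubulin gene and is not reported.

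C4bpa had the widest spread between rats of the 6 members and Cfi, with a pooled SD of 0.307 within diets, one close to the 0.317 of C1s. Cfi, the protease that cuts C3b and C4b with the help of cofactors, had 11.83, 12.15, 11.89 and 12.20 in control rats and 11.97, 12.45, 12.83 and 12.77 in L. brevis rats. L. brevis rats 2, 3 and 4 lay above every control rat, and rat 1 lay within the control range. The difference was +0.49 (SE 0.21, 95% interval -0.03 to 1.01, adjusted p = 0.468, limma), 1.4-fold, with an exact two-sided permutation p of 0.0857. It was 0.51 without L. brevis rat 2, whose liver had the muscle signal, and 0.67 without L. brevis rat 1 (adjusted p = 0.145, limma).

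C4bpa, the alpha chain of the C4b-binding protein and a cofactor of factor I, had 11.76, 12.58, 11.85 and 12.38 in control and 11.76, 12.58, 12.76 and 12.84 in L. brevis rats. Both diets held low and high rats, with control rats 1 and 3 and L. brevis rat 1 from 11.76 to 11.85 and the other 5 from 12.38 to 12.84. The difference was +0.34 (SE 0.32, 95% interval -0.42 to 1.11, adjusted p = 0.75, limma), and the pooled SD within diets, 0.453, exceeded that of 83.3% of the varying probe sets. Without L. brevis rat 1 it was 0.59, and without L. brevis rat 4 it was 0.22. The beta chain gene C4bpb, its neighbour, ran over an even wider range, with 10.15, 12.01, 10.95 and 11.57 in control and 10.70, 11.64, 11.69 and 11.42 in L. brevis rats. Over the 8 rats the 2 chains had an r of 0.85 and a rho of 0.71.

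Cfi and C4bpa ordered the rats nearly alike, with an r of 0.90 and a rho of 0.83 over the 8 rats and an r of 0.93 on deviations from the diet means. On such deviations C1s had an r of 0.86 with Cfi, and C9 had 0.82 with Cfi and with C4bpa. Over the 8 rats those pairs had 0.41, 0.44 and 0.65. Cfi and C4bpa also followed the GAPDH 5' minus 3' signal of the same arrays. For Cfi that r was 0.96 (rho 0.93) and for C4bpa 0.91 (rho 0.88), and on deviations from the diet means they were 0.93 and 0.99. An r at least as far from 0 as that of Cfi was found in 2.25% of the varying probe sets, and for C4bpa in 9.85%. Within diets the shares were 3.81% for Cfi and 0.127%, or 8 probe sets, for C4bpa. C3 had an r of 0.69 both over the 8 rats and within diets, with shares of 44.9% and 37%. C1s and C9 had 0.33 and 0.39 over the 8 rats, with shares of 77.9% and 73.1%. On deviations from the diet means C1s and C9 had 0.80 and 0.81, with shares of 21.3% and 20.1%. C5 had an r of -0.36 over the 8 rats and 0.24 within diets, with shares of 75.2% and 81.3%. Values like those of C3, C1s, C9 and C5 were thus common among the varying probe sets.

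With that signal as a covariate in the fit, the difference of Cfi went from +0.49 to -0.02 (SE 0.13, 95% interval -0.35 to 0.30) and that of C4bpa from +0.34 to -0.46 (SE 0.08, 95% interval -0.68 to -0.24). C1s became -0.62 (SE 0.21), C9 -0.07 (SE 0.02), C3 -0.08 (SE 0.10) and C5 -0.50 (SE 0.26). C4bpa, C1s and C9 then had an unadjusted p of 0.00262, 0.0296 and 0.0353, all 3 lower, where 7.65% of the varying probe sets reached that level and 4.43% did so on the lower side, but their adjusted p values were 0.589, 0.805 and 0.805 (limma). The sign changed with the covariate for 3 of the 6 members, C3, Cfi and C4bpa, and for 35.1% of all varying probe sets. All 4 shared Cfb and C2 probe sets were on the lower side with the covariate, 1383391_a_at at -0.65 (SE 0.53), 1383392_at at -0.37 (SE 0.13), 1389470_at at -0.34 (SE 0.10) and 1393219_at, from +0.19, at -0.44 (SE 0.18). None passed the adjusted threshold (limma). Diet and 5' signal differ together in these 8 arrays, and the diets overlap in that signal in only a few rats. The covariate fit assumes 1 linear slope common to both diets, and that assumption was not tested.

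**Figure D3:**
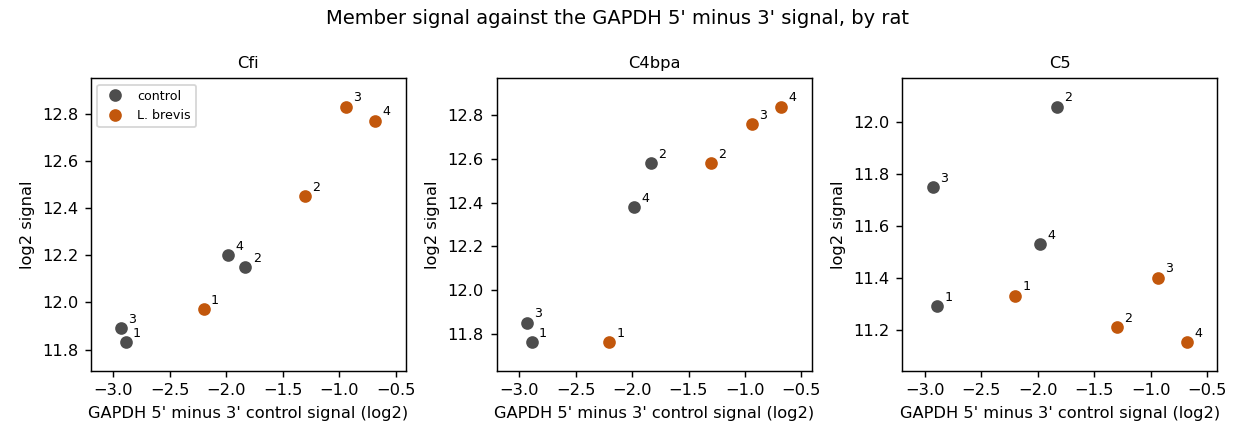
Log2 signal of Cfi, C4bpa and C5 (vertical axes) against the GAPDH 5' minus 3' control signal of the same array (horizontal axes, log2), with 1 point per rat, numbered within its diet. Cfi and C4bpa climb with the control signal in both diets (r of 0.96 and 0.91 over 8 rats), while C5 does not (r of -0.36).

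The bases before the start of Cfi, C4bpa, C3 and C5 are shown so that their regulatory letters can be compared. Cfi and C4bpa ordered the rats alike, and C3 had a rho of 0.83 with C4bpa and 0.71 with Cfi. C5 followed none of these 3 closely over the 8 rats. On deviations from the diet means, however, C5 had an r of 0.72 with C3, the same as C4bpa had with C3. Each line is the 250 bases before the 1 start per gene that the RefSeq promoter table (GRCr8) uses, read 5' to 3' on the gene's strand, and capitals mark matches to the letters searched. That start is not always the outermost one: the Cfi window lies wholly inside the span that RefSeq gives the gene, and the C4bpa window partly, so other starts of these 2 genes are not covered.
Cfi, chr2:221063066-221063315, plus strand: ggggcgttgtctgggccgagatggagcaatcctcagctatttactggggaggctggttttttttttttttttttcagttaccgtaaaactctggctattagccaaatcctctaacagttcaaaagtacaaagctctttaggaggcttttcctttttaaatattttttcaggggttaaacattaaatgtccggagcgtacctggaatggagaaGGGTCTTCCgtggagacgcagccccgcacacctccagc
C4bpa, chr13:44663472-44663721, minus strand: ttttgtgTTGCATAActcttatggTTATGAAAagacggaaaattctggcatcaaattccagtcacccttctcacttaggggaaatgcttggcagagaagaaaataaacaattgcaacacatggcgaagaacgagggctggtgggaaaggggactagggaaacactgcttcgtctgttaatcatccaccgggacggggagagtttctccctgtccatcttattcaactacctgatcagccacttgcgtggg
C3, chr9:2201340-2201589, minus strand: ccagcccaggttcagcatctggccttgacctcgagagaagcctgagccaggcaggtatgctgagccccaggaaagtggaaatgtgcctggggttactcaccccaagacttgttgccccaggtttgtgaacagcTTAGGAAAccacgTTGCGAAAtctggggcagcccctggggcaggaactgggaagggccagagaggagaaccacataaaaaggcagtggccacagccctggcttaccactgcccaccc
C5, chr3:38759469-38759718, minus strand: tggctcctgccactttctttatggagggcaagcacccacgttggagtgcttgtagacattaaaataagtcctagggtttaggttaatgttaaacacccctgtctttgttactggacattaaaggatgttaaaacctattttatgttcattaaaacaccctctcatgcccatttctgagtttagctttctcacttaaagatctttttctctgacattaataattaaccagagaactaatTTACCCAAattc

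The 5 patterns searched on both strands were a C/EBP pattern (TTNNGNAA), a STAT pattern (TTCNNNGAA), an NF-kappaB pattern (GGGNNTTCC), an HNF1 pattern (GTTAAT, any base, ATTAAC) and an FXR inverted repeat (AGGTCA, any base, TGACCT). C/EBP and STAT proteins carry interleukin-6 signals and NF-kappaB carries interleukin-1 signals to acute phase genes. The C3 window held 2 C/EBP matches that do not overlap, the one nearer the start being TTGCGAAA at 104 to 97 bases before it. C4bpa also held 2, TTGCATAA and TTATGAAA, at the far end of the window, and C5 held 1, TTACCCAA, next to the start. Cfi held no C/EBP match and 1 NF-kappaB match, GGGTCTTCC, at 38 to 30 bases before the start. A C/EBP match stood in 37.2% of the 33469 windows of this length in the table, an NF-kappaB match in 5.09% and a STAT match in 7.67%, an HNF1 pattern in 0.00299% and an FXR repeat in 0.0269%, so the C/EBP letters are common and the last 2 rare. Cfi and C4bpa shared none of the searched patterns in these windows. Matches are a description of the letters alone.

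The other complement genes were taken from a list of 43, of which 33 had a probe set of their own and 16 of these varied. Of the 16, 11 were higher and 5 lower with L. brevis (median 0.10), 0 passed the adjusted threshold, and 2 were higher at an unadjusted p under 0.05, a level and direction that 9.44% of varying probe sets had. These were C1qb and Cpb2. C1qb, a chain of C1q made mainly by macrophages, had 8.15, 9.17, 8.13 and 8.52 in control and 8.96, 8.99, 9.49 and 9.44 in L. brevis rats. Its groups overlapped through control rat 2, and the difference was +0.73 (SE 0.28, adjusted p = 0.389, limma). C1qc, another chain, differed by 0.04, and C1qa held 10.00 throughout. Of the 9 measured macrophage and Kupffer cell markers, which include the C1q chains, 8 varied, 6 higher and 2 lower, with Adgre1 at +0.65 and Clec4f, a Kupffer cell lectin, at +0.01. The mean of that list was 9.0 to 9.40 in control and 9.17 to 9.44 in L. brevis rats. Its part in the C1qb difference was not tested, and in whole liver a change in the number of cells cannot be told apart from a change in RNA per cell.

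Cpb2 encodes a plasma carboxypeptidase that inactivates C3a and C5a. Its signal was 11.04, 11.37, 11.15 and 11.60 in control and 11.35, 12.06, 12.07 and 12.54 in L. brevis rats, with L. brevis rats 2 to 4 above every control rat, as for Cfi. The difference was +0.72 (SE 0.27, adjusted p = 0.386, limma), and +0.09 with the GAPDH covariate, under which C1qb stood at +0.14. Among the recognition lectins, Mbl1 differed by +0.66 (SE 0.39), or -0.31 with the covariate, while Colec11 stood at -0.07. Mbl2 stood at -0.19 at its brightest probe set and +0.21 at the other, and at -0.55 and -0.56 with the covariate. The lectin pathway protease Masp1 differed by -0.58 (SE 0.28, adjusted p = 0.523, limma). Masp2, the other one, was counted as not varying by its brightest probe set, but its second, 1371098_a_at, had 8.53 ± 0.37 in control and 9.48 ± 0.81 in L. brevis rats (SD, n = 4). That difference of +0.95 (SE 0.44, adjusted p = 0.5, limma) was -0.06 with the covariate. In the alternative pathway Cfd, factor D, stood at +0.47 and Cfp, properdin, at -0.15. Of the terminal genes C8a and C8g differed by 0.04 and 0.22. Among inhibitors all 5 varying genes were on the higher side, Cpb2, C4bpb at 0.19, clusterin (Clu) at 0.18, vitronectin (Vtn) at 0.15 and Serping1, the C1 inhibitor, at 0.01. Their median of 0.18 was -0.09 with the covariate. All 6 measured receptor genes held 1 value on the 8 arrays.

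**Figure D4:**
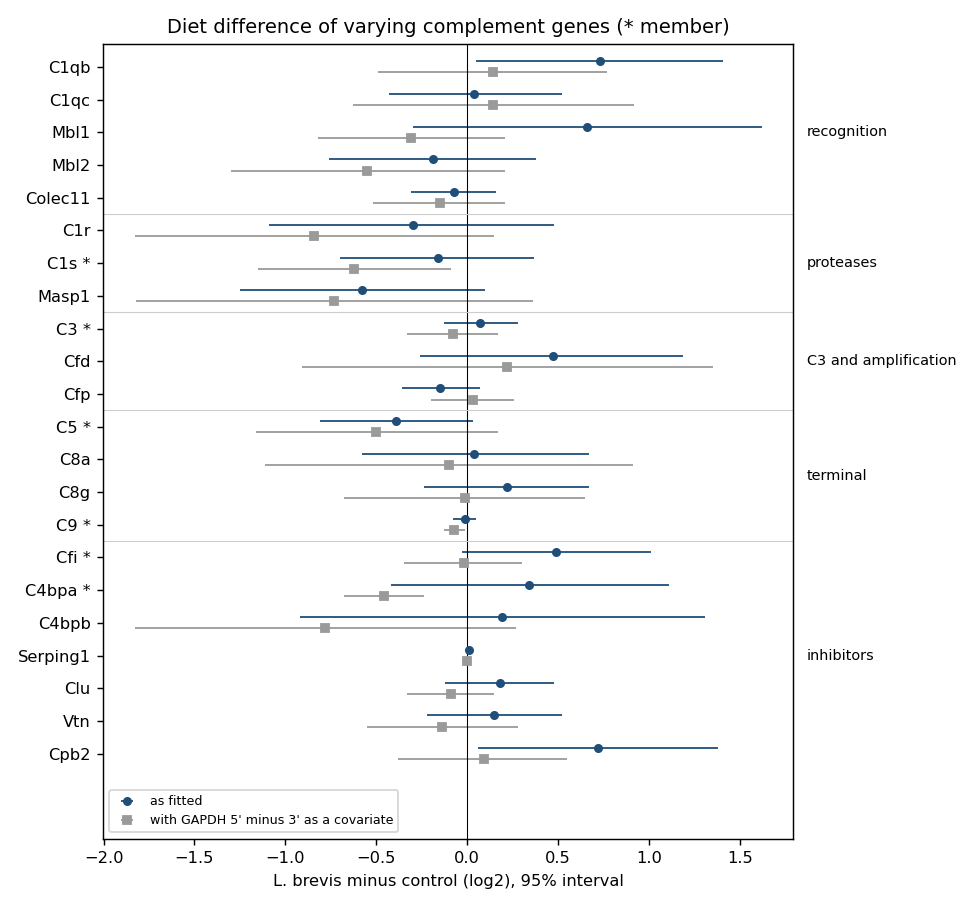
L. brevis minus control (log2, horizontal axis) with the 95% interval for the 22 complement genes with a varying representative probe set, ordered by pathway step, as fitted (circles) and after the GAPDH control signal was added to the fit (squares). Asterisks mark the 6 members. All 6 members' fitted intervals include 0, and the covariate moves Cfi to -0.02 and C4bpa to -0.46.

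Genes that act on complement in liver were looked at from a list of 14 regulators, 13 of them measured and 10 varying, 4 higher and 6 lower. None passed the adjusted threshold, and 2 were lower at an unadjusted p under 0.05, where 13.5% of the varying probe sets were. Nr1h4 encodes FXR, the nuclear receptor for bile acids, and stood at -0.54 (SE 0.19, adjusted p = 0.355, limma), or -0.32 with the GAPDH covariate. Il6st, the signalling chain of the interleukin-6 receptor, differed by -0.52 at its brightest probe set, by -0.94 and -0.17 at 2 others and by +0.58 at the fourth, so 3 of its 4 probe sets were lower and 1 higher. With the GAPDH covariate these were -0.08, -0.36, -0.32 and +0.82, in that order. At the fourth (adjusted p = 0.386, limma) all L. brevis rats lay above all control rats, as in 4.21% of the varying probe sets. The next widest regulators were Il1r1 at -0.39 (SE 0.49) and Irf1 at -0.31 (SE 0.20), or -1.38 and -0.44 with the covariate. Cebpa went from +0.25 to +0.81 (SE 0.30) with the covariate at its brightest probe set. Stat3 differed by +0.26 and -0.83 at its 2 varying probe sets. Of 12 varying acute phase genes 7 were higher and 5 lower (median 0.01). At an unadjusted p under 0.05, 2 were higher, where 9.44% of the varying probe sets were. They were Crp, C-reactive protein, which binds C1q, at +1.26 (SE 0.31, adjusted p = 0.32, limma) and Orm1 at +1.57 (SE 0.48, adjusted p = 0.347, limma). In both, all L. brevis rats lay above all control rats, as in 4.21% of the varying probe sets. With the GAPDH covariate Crp stood at +0.67 (SE 0.32) and Orm1 at +1.10 (SE 0.71). The next widest differences of that list, A2m at -0.52, Serpina3n at -0.44 and Lcn2 at +0.27, belonged to genes that had overlapping diets.

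The mean of the 6 varying members, each centred on its own mean, was -0.24, 0.15, -0.12 and 0.10 in control rats and -0.26, -0.02, 0.21 and 0.18 in L. brevis rats. Control rats 1 and 3 and L. brevis rats 1 and 2 were below 0 and the other 4 above it. Among 3715 varying genes outside all lists, the ones most like this profile over the 8 rats were Snx6, a sorting nexin, with an r of 0.976, Ssr3, a subunit of the translocon-associated protein complex, with 0.971, and Atp6v1a, of the vacuolar proton pump, with 0.953. Their own diet differences were 0.09, 0.06 and 0.06. They are the closest of many genes over few rats and share arrays with the members, so the values describe likeness only.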

How the data were processed

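Total RNA was extracted with Trizol and labelled with a 3' in vitro transcription kit, per the labels' protocols. The values are log2 signals per probe set, deposited by the authors already normalized; how they were summarised and normalized is not stated in the sources used here. The replicates are labelled biological, and no batch was given. The 57 control probe sets were left out of the tests. Of the other 31042, 20826 had 1 gene symbol, 436 several and 9780 none in the platform annotation, and no symbol differed from RefSeq's after matching by gene identifier. A gene was represented by its probe set with the highest mean. The comparison was fitted with limma 3.58.1 in R 4.3.3 (lmFit, eBayes with an intensity trend, two-sided, Benjamini-Hochberg adjustment over all 31042 probe sets, threshold 0.05) and checked on simulated data. All members are named. From the complement, regulator and acute phase lists, genes at an unadjusted p under 0.05 and the widest others are named. Marker lists are described, where used, by means, counts and a few genes. Members, lists, tests and alternatives were chosen with earlier results of these data known. The number of arrays limits the precision. Promoter sequences are RefSeq's (GRCr8), matched by symbol for 5 of the 9 members.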

Additional observations from a re-analysis of the deposited data

Results flagged for a closer look

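In control rat 4 the signal of Cfp, properdin, was 7.81, against 7.99 to 8.02 in the other control rats, a gap of 0.846 of the group's range. The mean of the skeletal muscle markers in L. brevis rat 2 was 8.30, against 6.08 to 6.10 in the other L. brevis rats, a gap of 0.991 of the range. Of 57 sets of 4 rats tested against Dixon's critical value, 2 passed, and chance alone passes about 1 in 20.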

How the results depend on the processing

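No member passed the adjusted threshold under any of the 18 alternatives run. The lowest adjusted p was 0.0721, for Cfi under median centring (limma). That setting also shifts the probe sets that do not vary, so its adjusted p values cannot be set beside those of the other fits. C9, for example, had an unadjusted p of 0.636 and an adjusted p of 0.657 under it (limma). In the other fits the lowest adjusted p of Cfi was 0.125, with array weights (limma). The count of members at an unadjusted p under 0.05, 0 as reported, was 2 under quantile normalization (C5 and C9) and 1 with median centring. It was 0 to 1 when single rats were left out. The share of varying probe sets at that level was not counted in these settings. In the fit to varying probe sets 2 members were at that level, beside 24.5% of those probe sets. With array weights there were 2, beside 40.3%, and with the GAPDH covariate 3, beside 7.65%. The members' median difference was -0.27 with the GAPDH covariate and -0.01 to 0.06 without single rats. Other complement genes at an unadjusted p under 0.05 numbered 5 with array weights, where 40.3% of the varying probe sets were at that level. With the GAPDH covariate they numbered 0, beside 7.65%. Without single rats they numbered 0 to 5, with no share counted. With the GAPDH covariate C3 was -0.08, Cfi -0.02, C4bpa -0.46, 1393219_at -0.44 and Mbl1 -0.31, all reversed. C9 was 0.02 with median centring and ran from -0.03 to 0.01 without single rats, and C1s was 0.01 with array weights; the cause was not tested. With a replicate block the differences of Cfi and C5 were 0.49 and -0.39 (adjusted p = 0.445 and 0.548, limma), and no member's call changed, while the probe sets called went from 44 to 128. Deviations of same-numbered rats correlated at 0.359, 0.203, 0.0778 and 0.381, and those of differently numbered rats at -0.519 to 0.397. Control rats 1 and 2 correlated best with their own number, control rat 3 with L. brevis rat 1 and control rat 4 with L. brevis rat 3. The match was thus mixed, and the numbers were not taken as pairs. With robust eBayes the SE was 2.06 for C3, 0.62 for C9 and 0.35 for 1389470_at, against 0.09, 0.03 and 0.08 as reported. The unadjusted p of 1389470_at was then 0.526 (limma), so the narrow intervals of these probe sets depend on the variance setting. Over all probe sets 0 were called under quantile normalization and 180 without L. brevis rat 1. Background correction was not varied, since the deposited values are already processed.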
